A study of Mus musculus with 19 samples.

Results

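The genes described here are 40 heart muscle genes in RNA from kidney-labelled libraries of 2 mouse strains, out of 40413 genes in the deposited table. They were named one by one from earlier results of these data: their level in the library labelled BPH/2J Cmpd17b replicate 1, in the 4 other treated BPH/2J libraries and in the other groups was known when they were chosen. All 40 were found in the table by their symbols. By role they are 7 genes of the thick filament, 7 of the thin filament, 11 of the Z-disc, M-band and scaffold, 7 of calcium handling, 4 of energy and oxygen supply, 2 natriuretic peptides and 2 other muscle genes.

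Blood pressure is normal in the BPN/3J strain and high in the BPH/2J strain. Adults of both strains were dosed daily over 28 days with vehicle or with Cmpd17b, an agonist of formylpeptide receptors, given intraperitoneally at 50 mg/kg/day. In BPN/3J, 4 mice had vehicle and 5 had Cmpd17b, and in BPH/2J, 5 mice had each. Each mouse has its own number in the labels and gave 1 polyadenylated RNA library, so a replicate is a mouse. The strains differ in genetic background as well as in blood pressure, and these cannot be told apart.

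A heart muscle cell shortens when thick filaments of myosin pull on thin filaments of actin within repeating units called sarcomeres. Titin and Z-disc proteins hold the filaments in place, and calcium released from the sarcoplasmic reticulum through the ryanodine receptor starts each beat. Creatine kinases, fatty acid carriers and myoglobin supply energy and oxygen, and heart muscle cells release natriuretic peptides into the blood, where they act on the kidney and on vessels. Some of these genes are also active outside the heart: smooth muscle and many other cells use the tropomyosin gene Tpm1, and Atp2a2 encodes a calcium pump found in most cells.

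The promoters of heart and skeletal muscle genes commonly carry a CArG box, bound by serum response factor, or a site for MEF2 factors. RefSeq promoter windows of 300 bases each, in build GRCm38.p6, were matched by symbol to 38 of the 40 genes, with 48 promoters between them. Windows for Trdn and Atp2a2 were not used here. A CArG box was found on either strand in 7 of the 48 promoters (14.6%), belonging to 6 genes, and in 1.63% of all 32851 promoter windows. The MEF2 site was found in 4 promoters (8.33%), against 1.86% of all windows. The TATA box TATAAA was in 14.6% of the 48 against 13.6% of all windows, the M-CAT element CATTCC in 27.1% against 14.7% and the GATA motif AGATAA in 18.8% against 11.2%. A match is a run of letters and was not shown to be a bound site. The stretches below show the CArG box of each of the 6 genes in capitals, 5′ to 3′ on the gene's own strand, because the cardiac and skeletal actins Actc1 and Acta1 and the atrial light chain Myl7 all carry one while their levels in these libraries differ widely.
Myl3: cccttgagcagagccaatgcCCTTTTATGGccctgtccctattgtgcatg
Myl7: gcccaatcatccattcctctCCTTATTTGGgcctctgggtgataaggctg
Actc1: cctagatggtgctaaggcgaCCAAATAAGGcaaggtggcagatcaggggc
Acta1: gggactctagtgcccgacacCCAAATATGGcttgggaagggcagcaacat
Ldb3: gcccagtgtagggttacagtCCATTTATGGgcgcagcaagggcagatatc
Myom1: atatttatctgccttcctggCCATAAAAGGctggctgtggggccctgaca
The stretches that hold a MEF2 site, in capitals, belong to Mybpc3, Ttn, Myoz2 and Casq2, of the thick filament, the titin scaffold, the Z-disc and the calcium store. They are shown because all 4 genes stood at high levels in the same library.
Mybpc3: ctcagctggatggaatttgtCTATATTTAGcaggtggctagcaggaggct
Ttn: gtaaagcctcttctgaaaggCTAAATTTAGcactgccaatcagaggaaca
Myoz2: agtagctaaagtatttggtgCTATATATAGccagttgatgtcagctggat
Casq2: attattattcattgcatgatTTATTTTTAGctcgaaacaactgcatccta
The Myl3 stretch lies at chr9:110763573-110763622 (plus strand), Actc1 at chr2:114052893-114052942 (minus strand), Acta1 at chr8:123894819-123894868 (minus strand), Myl7 at chr11:5898814-5898863 (minus strand), Ldb3 at chr14:34588687-34588736 (minus strand) and Myom1 at chr17:71019438-71019487 (plus strand). The Mybpc3 stretch lies at chr2:91118034-91118083 (plus strand), Ttn at chr2:76982684-76982733 (minus strand), Myoz2 at chr3:123034991-123035040 (minus strand) and Casq2 at chr3:102086326-102086375 (plus strand). Each stretch ends 4 to 137 bases upstream of the annotated start of the gene.

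Total counts per library ran from 21400119 to 40998662. Levels are in CPM, a gene's estimated count scaled to the total of its library so that 1000 CPM is 0.1% of it, and a count of 0 allows up to 3 counts, which is 0.0732 to 0.14 CPM over the libraries and 0.0969 CPM in BPH/2J Cmpd17b replicate 1. Intervals from counts cover counting error only. BPH/2J Cmpd17b replicate 1 stood apart from the other 18 libraries and went against its tissue label. Slc34a1, a phosphate transporter of the proximal tubule, was at 5.94 CPM in it and at 2202 CPM or more in every other library, and all 15 proximal tubule, 7 thick ascending limb and 10 collecting duct genes lay below all 18 others. So did 6 of 7 distal convoluted tubule genes, with 1 above all 18 (Slc8a1, which the heart also uses), and 3 of 8 podocyte genes, with 1 above. The podocyte genes summed to 202 CPM in it, within the 132 to 256 CPM of the 4 other treated BPH/2J libraries. That sum rested on few genes, with a median of 5.07 CPM, 1 gene at 0 and the highest at 104 CPM. It is called the heart-profile library below, is given apart in every value and is left out of the tests. All 19 libraries carry the same batch label. Sorted by library number, however, they fall group after group, and the heart-profile library comes just before the 4 other treated BPH/2J libraries. What this order reflects is not given, and it cannot be told apart from group. Its part in the differences between groups was not tested.

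In the heart-profile library the 40 genes summed to 112744 CPM, or 11.3% of its counts (exact 95% interval 11.26% to 11.29%). In the 4 vehicle BPN/3J libraries they summed to 429 to 512 CPM, in treated BPN/3J to 435 to 561 CPM, in vehicle BPH/2J to 357 to 497 CPM and in the 4 other treated BPH/2J libraries to 550.2 to 694 CPM. In bulk tissue, a larger number of cells of a type and more RNA per cell cannot be told apart. The heart-profile library had 39 of the 40 genes at 100 CPM or more and 21 at 1000 CPM or more. Among its 20 most abundant genes that are not mitochondrially encoded, 9 were members, and among the first 50 there were 18.

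**Figure D1:**
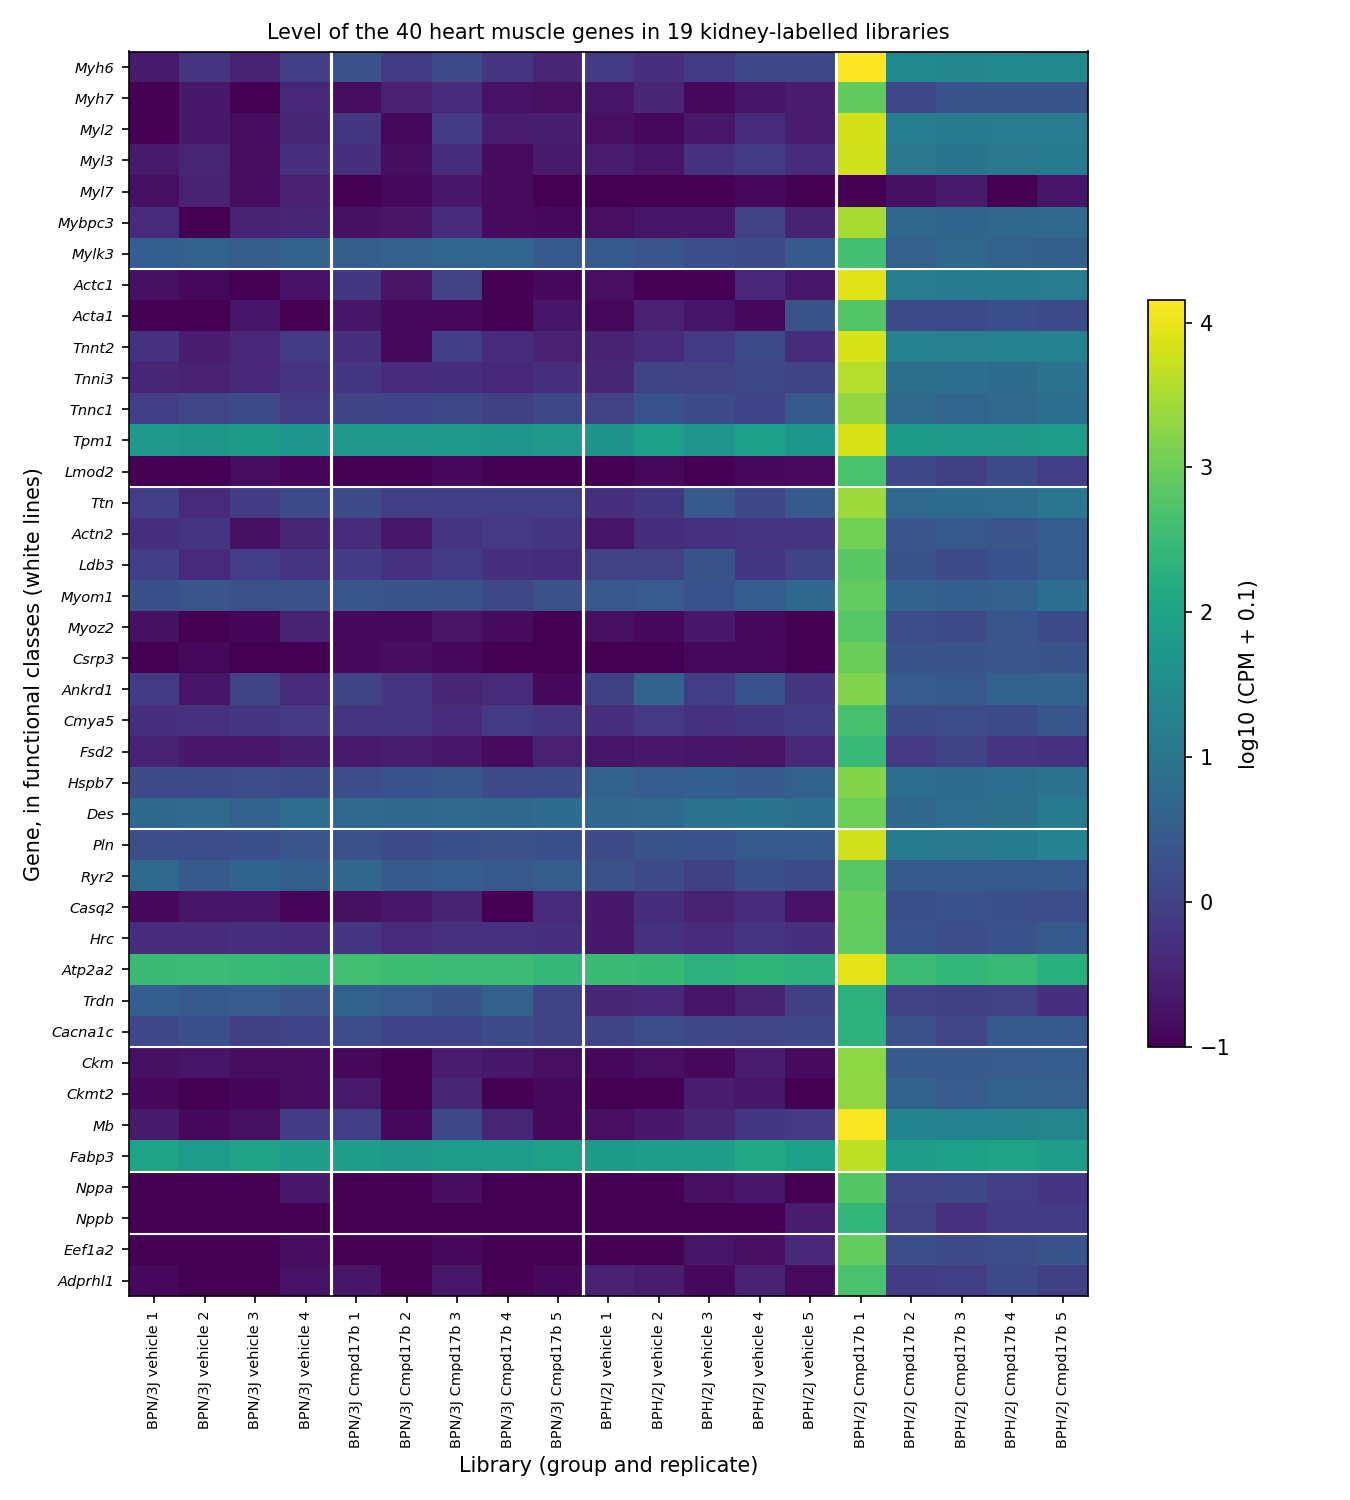
Level of each of the 40 genes (rows, grouped by role between white lines) in each of the 19 libraries (columns, grouped by strain and treatment), as log10 of CPM + 0.1. BPH/2J Cmpd17b replicate 1 is bright in 39 rows and dark at Myl7, the 4 libraries to its right are brighter than the 14 to its left in most rows, and Tpm1, Atp2a2 and Fabp3 are bright in every library.

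The levels in the heart-profile library are given first in CPM, which is not divided by transcript length. Among the thick filament genes, Myh6, the main myosin heavy chain of the adult mouse heart, stood at 14200 CPM in the heart-profile library and Myh7, the chain of the fetal ventricle and of slow muscle, at 782 CPM. Their transcripts shared 22.2% to 22.6% of 50-base windows, so a part of the reads could belong to either, and the Myh7 level is uncertain. The ventricular light chains Myl2 and Myl3 were at 6580 CPM and 5893 CPM, and the myosin-binding protein Mybpc3 was at 2960 CPM. Myl7, the atrial regulatory light chain, had a count of 0, which allows up to 0.0969 CPM. Of 10 genes listed as atrial, 3 were at 0 (Myl7, Sln and Bmp10), the light chain Myl4 was at 2.42 CPM, 4 were at 10 CPM or more and 3 lay above all 18 other libraries. The highest were Nppa, which the adult atrium makes in large amounts and which the ventricle can also make, at 612 CPM, and Kcnj3 at 63.0 CPM. Of 6 genes listed as ventricular, 5 lay above all 18 other libraries, among them Irx4 at 38.1 CPM, and Hand1 was at 0.

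Among thin filament genes, cardiac actin (Actc1) was at 8090 CPM, tropomyosin (Tpm1) at 6943 CPM and cardiac troponin T (Tnnt2) at 6835 CPM. Troponin I (Tnni3) was at 3839 CPM and troponin C (Tnnc1) at 2123 CPM. Skeletal actin, Acta1, was at 594 CPM, and per kilobase it was at 411 CPM against 5492 CPM for Actc1. Of 18 skeletal muscle genes, 2 were at 10 CPM or more in the same library, 9 lay above and 2 below all 18 other libraries, and they summed to 77.5 CPM against 9.85 to 24.0 CPM elsewhere. The highest were Myl1 (32.4 CPM), Mybpc2 (16.2 CPM) and Cacna1s (9.56 CPM), and the fast-muscle markers Myh1, Myh2, Myh4, Tnnt3, Tnni2, Tnnc2, Mylpf, Actn3 and Atp2a1 were at 0 to 0.582 CPM.

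Titin, Ttn, the giant spring of the sarcomere, was at 2454 CPM, and Hspb7, a small heat shock protein of heart and muscle, at 1591 CPM. Per kilobase of transcript the order changed, since Ttn is long: Mb came to 12097 CPM per kb, Myl2 to 7402, Myl3 to 6289, Tnnt2 to 5696 and Actc1 to 5492, against 23 CPM per kb for Ttn. These are levels in a single library, with no spread between mice.

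Among calcium genes, Atp2a2 was at 8546 CPM and its inhibitor phospholamban, Pln, at 6163 CPM. The calcium store protein Casq2 was at 875 CPM, Hrc, which binds calcium in the same store, at 806 CPM, and the ryanodine receptor Ryr2 at 665 CPM. Mb, encoding myoglobin, was at 13355 CPM and the fatty acid carrier Fabp3 at 4515 CPM, and the creatine kinases Ckmt2 and Ckm at 1969 and 1900 CPM. Nppb was at 243 CPM. Eef1a2, an elongation factor of muscle and neurons, was at 846 CPM.

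Heart genes outside the 40 were also high in this library. Of 25 further sarcomere genes in the table, 24 lay above all 18 other libraries, led by Tcap (1550 CPM), Fhl2 (1489 CPM) and Myom2 (1146 CPM), as did 21 of 23 further calcium and excitation genes and 14 of 15 further energy genes. Of 10 heart transcription factors 9 did, led by Gata4 at 101 CPM and Tbx20 at 90.2 CPM. Of cell types that heart and kidney share, 8 of 10 endothelial and 7 of 8 fibroblast genes lay above all 18 libraries, as did 3 of 9 smooth muscle, 3 of 7 red blood cell, 2 of 7 leukocyte and 1 of 7 fat cell genes. In the endothelial, red blood cell and leukocyte lists 1 gene each lay below all 18.

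In the 4 other treated BPH/2J libraries (replicates 2 to 5), 29 of the 40 genes were higher in every library than in every one of the 5 vehicle BPH/2J libraries, 0 were lower in that sense, and 11 overlapped. Over all 16421 genes tested, 0.365% were separated upward in this way and 0.658% downward. The genes were chosen with this comparison known, so the counts describe them and no test is given. By role the 29 were 6 of 7 thick filament genes, 5 of 7 thin filament genes, 7 of 11 Z-disc and scaffold genes, 4 of 7 calcium genes, 3 of 4 energy genes, both natriuretic peptides and both other muscle genes. The median fitted log2 fold change over the 39 genes that passed the filter on low counts was 2.81, against -0.01 over all genes, and 16 of the 39 passed only with the treated BPH/2J libraries in the table.

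Myh6 was at 28.3, 24.7, 26.9 and 27.5 CPM in treated BPH/2J replicates 2 to 5 and at 0.667, 0.406, 0.635, 1.18 and 1.13 CPM in vehicle BPH/2J. It was at 0.14, 0.525, 0.22 and 0.824 CPM in vehicle and 1.83, 0.676, 1.5, 0.509 and 0.264 CPM in treated BPN/3J mice. The 4 treated BPH/2J libraries lay close together and far above the other 14, whose 3 groups overlapped. Myl2 was at 15.9, 14.1, 15.4 and 15.3 CPM in the same 4 libraries, 0.0635, 0.0318, 0.127, 0.357 and 0.155 CPM in vehicle BPH/2J, 0, 0.125, 0.0488 and 0.251 CPM in vehicle BPN/3J and 0.60, 0.0292, 0.734, 0.157 and 0.165 CPM in treated BPN/3J. Both genes separated the 4 libraries from all 14 others. Myh7 was at 1.18, 1.94, 2.1 and 1.94 CPM against 0.0953, 0.261, 0.0318, 0.108 and 0.148 CPM in vehicle BPH/2J, and at 0, 0.129, 0 and 0.279 CPM and 0.0449, 0.20, 0.349, 0.0783 and 0.0659 CPM in vehicle and treated BPN/3J. The ratio of Myh6 to Myh7 was 12.7 to 23.9 in the 4 libraries and 18.1 in the heart-profile library. Myl7, at 0 in the heart-profile library, was at 0.071, 0.138, 0 and 0.0935 CPM in the 4 others, 0, 0, 0, 0.0297 and 0 CPM in vehicle BPH/2J, 0.0701, 0.218, 0.0488 and 0.201 CPM in vehicle BPN/3J and 0, 0.0292, 0.117, 0.0391 and 0 CPM in treated BPN/3J, so its groups overlapped.

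Of the thin filament genes, the cardiac actin Actc1 was at 14.9, 13.5, 13.9 and 14.5 CPM in treated BPH/2J replicates 2 to 5, 0.0635, 0, 0, 0.268 and 0.116 CPM in vehicle BPH/2J, 0.0701, 0.0311, 0 and 0.0752 CPM in vehicle BPN/3J and 0.60, 0.0876, 0.88, 0 and 0.033 CPM in treated BPN/3J. Tnnt2 was at 18.5, 17.8, 18.5 and 18.2 CPM against 0.222, 0.349, 0.667, 1.28 and 0.348 CPM in vehicle BPH/2J, and in vehicle and treated BPN/3J at 0.456, 0.156, 0.268 and 0.652 CPM and 0.424, 0.0292, 0.822, 0.352 and 0.198 CPM. Both genes separated the 4 libraries from all 14 others. Skeletal actin did not, because of 1 vehicle mouse: Acta1 was at 1.49, 1.35, 1.69 and 1.4 CPM in the 4 libraries, 0.0318, 0.191, 0.0953, 0.0297 and 1.93 CPM in vehicle BPH/2J, 0, 0, 0.0976 and 0 CPM in vehicle BPN/3J and 0.106, 0.0292, 0.0293, 0 and 0.0989 CPM in treated BPN/3J. Tpm1, which kidney libraries hold at a high level, was at 65, 58.7, 59.6 and 70.3 CPM in the 4 libraries and 47.1, 81, 47.6, 84.2 and 51.9 CPM in vehicle BPH/2J, and at 62.5, 54.5, 65 and 49.8 CPM and 58.8, 56.9, 56.9, 50.1 and 57.3 CPM in vehicle and treated BPN/3J, with all groups overlapping.

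Among scaffold genes, Ttn was at 5.61, 6.6, 6.99 and 10.4 CPM in treated BPH/2J replicates 2 to 5, 0.413, 0.572, 2.67, 1.22 and 2.75 CPM in vehicle BPH/2J, 0.771, 0.311, 0.683 and 1.33 CPM in vehicle BPN/3J and 1.48, 0.759, 0.822, 0.744 and 0.758 CPM in treated BPN/3J. Hspb7 was at 7.28, 6.35, 7.23 and 8.88 CPM in the 4 libraries, 3.84, 3.08, 3.33, 2.68 and 3.91 CPM in vehicle BPH/2J, 1.44, 1.46, 1.56 and 1.45 CPM in vehicle BPN/3J and 1.66, 1.87, 2.32, 1.49 and 1.42 CPM in treated BPN/3J. For both genes the 4 libraries lay above all others, and for Hspb7 the vehicle BPH/2J libraries in turn lay above all BPN/3J libraries. Csrp3, a Z-disc LIM protein, was at 2.04 ± 0.0885 CPM (SD, n = 4) against 0.0123 ± 0.0169 CPM (n = 5) in vehicle BPH/2J. The scaffold genes that overlapped were Ldb3, Myom1, Ankrd1 and Des, and Des, the intermediate filament desmin that smooth muscle also makes, was at 8.41 CPM on average against 7.25 CPM.

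Phospholamban, Pln, was at 13.1, 11.6, 12.8 and 18.7 CPM in treated BPH/2J replicates 2 to 5, 1.43, 1.97, 1.84, 2.56 and 2.75 CPM in vehicle BPH/2J, 1.61, 1.62, 1.68 and 2.16 CPM in vehicle BPN/3J and 1.8, 1.4, 1.7, 1.8 and 1.68 CPM in treated BPN/3J. Atp2a2 was at 346, 258, 295 and 169 CPM in the same 4 libraries, 330.0, 283, 204, 239 and 209 CPM in vehicle BPH/2J, 328, 338, 313 and 272 CPM in vehicle BPN/3J and 387, 364, 348, 342 and 269 CPM in treated BPN/3J. The 4 libraries were separate from all others for Pln, and the groups overlapped for Atp2a2. Replicate 5 was the highest of the 4 for Pln and Ttn and the lowest for Atp2a2 and Trdn. It also had the highest sum of smooth muscle genes among the 4, at 197 CPM against 84.7 to 122 CPM, and the part of these cells in that spread was not tested.

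Myoglobin was at 21, 20.1, 20.4 and 22.9 CPM in treated BPH/2J replicates 2 to 5, 0.0635, 0.127, 0.254, 0.595 and 0.619 CPM in vehicle BPH/2J, 0.14, 0.0311, 0.0732 and 0.727 CPM in vehicle BPN/3J and 0.812, 0.0292, 1.2, 0.235 and 0.033 CPM in treated BPN/3J. Fabp3, which the kidney also expresses, was at 78.7, 86.5, 98.8 and 74.2 CPM, 64.8, 75.8, 74.6, 137 and 79 CPM, 92.3, 69.1, 94.5 and 75 CPM and 78.1, 56.8, 71.7, 69.4 and 83.2 CPM in the same order of groups. Mb separated the 4 libraries from the rest and Fabp3 did not.

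The natriuretic peptides were among the scarcest of the separated genes. Nppa was at 1.1, 1.14, 0.746 and 0.561 CPM in treated BPH/2J replicates 2 to 5, 0, 0, 0.0635, 0.119 and 0 CPM in vehicle BPH/2J, 0, 0, 0 and 0.125 CPM in vehicle BPN/3J and 0, 0, 0.0587, 0 and 0 CPM in treated BPN/3J. Nppb was at 0.923, 0.449, 0.707 and 0.654 CPM in the 4 libraries and 0, 0, 0, 0 and 0.155 CPM in vehicle BPH/2J, and at 0 in all 9 BPN/3J libraries. Of the other muscle genes, Eef1a2 was at 1.6, 1.38, 1.65 and 1.96 CPM in the 4 libraries, 0, 0, 0.0953, 0.0595 and 0.271 CPM in vehicle BPH/2J, 0, 0, 0 and 0.0502 CPM in vehicle BPN/3J and 0, 0, 0.0293, 0 and 0 CPM in treated BPN/3J. Adprhl1, an ADP-ribosylhydrolase-like gene of the heart, was at 0.71, 0.76, 1.26 and 0.841 CPM, 0.191, 0.159, 0.0318, 0.208 and 0.0387 CPM, 0.0351, 0, 0 and 0.0752 CPM and 0.106, 0, 0.117, 0 and 0.033 CPM in that order. All 4 genes were higher in the 4 libraries than in any of the 14 others.

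Of the heart genes outside the 40, 8 of 25 sarcomere genes, 2 of 23 calcium and excitation genes, 2 of 15 energy genes and 3 of 10 transcription factors lay higher in all 4 libraries than in all 5 vehicle libraries, against the 0.365% over all genes. Tcap was among them, at 2.81, 3.0, 2.43 and 3.83 CPM against 0.0953, 0.0635, 0.286, 0.654 and 0.426 CPM, and so was Gata4, at 0.213, 0.207, 0.236 and 0.234 CPM against 0, 0, 0.0318, 0 and 0 CPM. Of 18 skeletal muscle, 9 smooth muscle, 10 endothelial, 8 fibroblast and 8 podocyte genes, 0 were separated in either direction. For skeletal muscle this says little. Only 3 of the 18 genes passed the filter on low counts, and their list had a median of 0.226 CPM in the heart-profile library. Among 7 fat cell and 7 leukocyte genes, 1 each lay lower in all 4 libraries. Fat cell genes summed without Fabp4 were at 0.284 to 1.76 CPM in the 4 libraries and 1.14 to 58.3 CPM in vehicle BPH/2J, with a median fitted log2 fold change of -3.72 over 6 genes. Sums over the kidney lists overlapped between the 4 libraries and the vehicle group, with proximal tubule genes at 50094 to 70987 CPM against 49995 to 79350 CPM.

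The height of a gene in the heart-profile library went with its excess in the 4 others. The excess is the mean CPM of the 4 libraries minus the mean CPM of the 5 vehicle BPH/2J libraries, and it is given as a percent of the gene's level in the heart-profile library. It was computed for the 37 genes at 100 CPM or more there whose vehicle level was under 1% of it, which leaves out Myl7, Atp2a2 and Fabp3. The median excess was 0.183% (quartiles 0.173% and 0.224%), with medians of 0.180%, 0.168%, 0.184% and 0.210% in replicates 2, 3, 4 and 5. By role the medians were 0.198% for thick filament, 0.180% for thin filament, 0.191% for Z-disc and scaffold, 0.196% for calcium, 0.155% for energy and 0.204% for natriuretic peptide genes. Across the 37 genes, Pearson's r between the log10 level and the log10 excess was 0.90. All points come from the same libraries, so this describes them only.

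**Figure D2:**
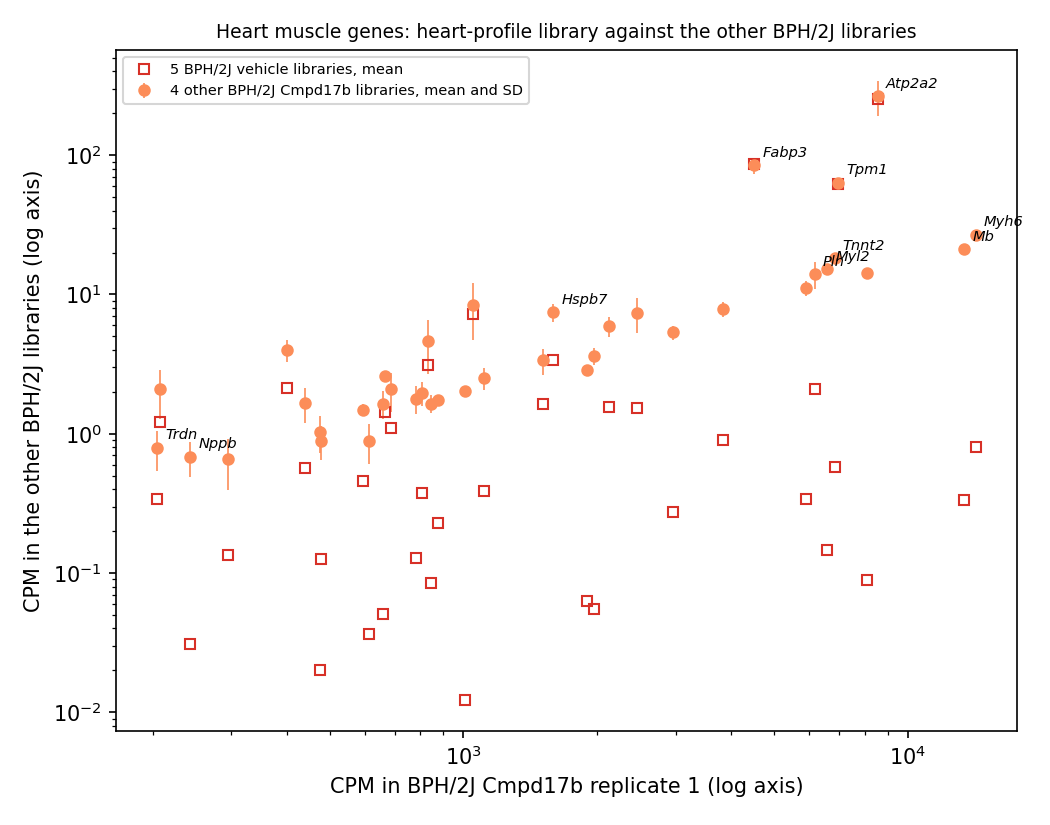
Each gene's CPM in BPH/2J Cmpd17b replicate 1 (x axis, log scale) against its mean CPM in the 4 other treated BPH/2J libraries (filled circles, bars SD) and in the 5 vehicle BPH/2J libraries (open squares), y axis on a log scale. Myl7, at 0 in replicate 1, is not drawn. The circles climb with the x axis, the squares scatter below them, and both coincide for Tpm1, Atp2a2 and Fabp3.

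A narrower set holds the 16 genes that were nearly absent from vehicle BPH/2J kidneys, with a vehicle mean under 0.02% of the heart-profile level, a limit chosen after the values were seen. They were Myh6, Myh7, Myl2, Myl3, Mybpc3, Actc1, Tnnt2, Lmod2, Myoz2, Csrp3, Ckm, Ckmt2, Mb, Nppa, Nppb and Eef1a2. Their median excess was 0.184%, and it ran from 0.139% for Nppa to 0.268% for Nppb. Myh6 was at 0.183% ± 0.0108 (SD, n = 4), Actc1 at 0.174% ± 0.00772 and Myl2 at 0.228% ± 0.0120. The genes were not all at the same percent: Tnnt2 was at 0.258% ± 0.00482 while Mb was at 0.155% ± 0.00945 and Ckm at 0.146% ± 0.0109, and the values of Tnnt2 in the 4 libraries did not overlap those of Mb or Ckm. Nppb was at 0.268% ± 0.0802, where counting error alone gives an SD of 0.0667 percentage points. Over the 37 genes the extremes were Tpm1, at 0.0147% ± 0.0775, and Mylk3, at 0.466% ± 0.179, both of which vehicle kidneys expressed. A further 25 heart genes that met the same limits had a median excess of 0.175%, and all 68 other genes that met them had a median of 0.172%.

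**Figure D3:**
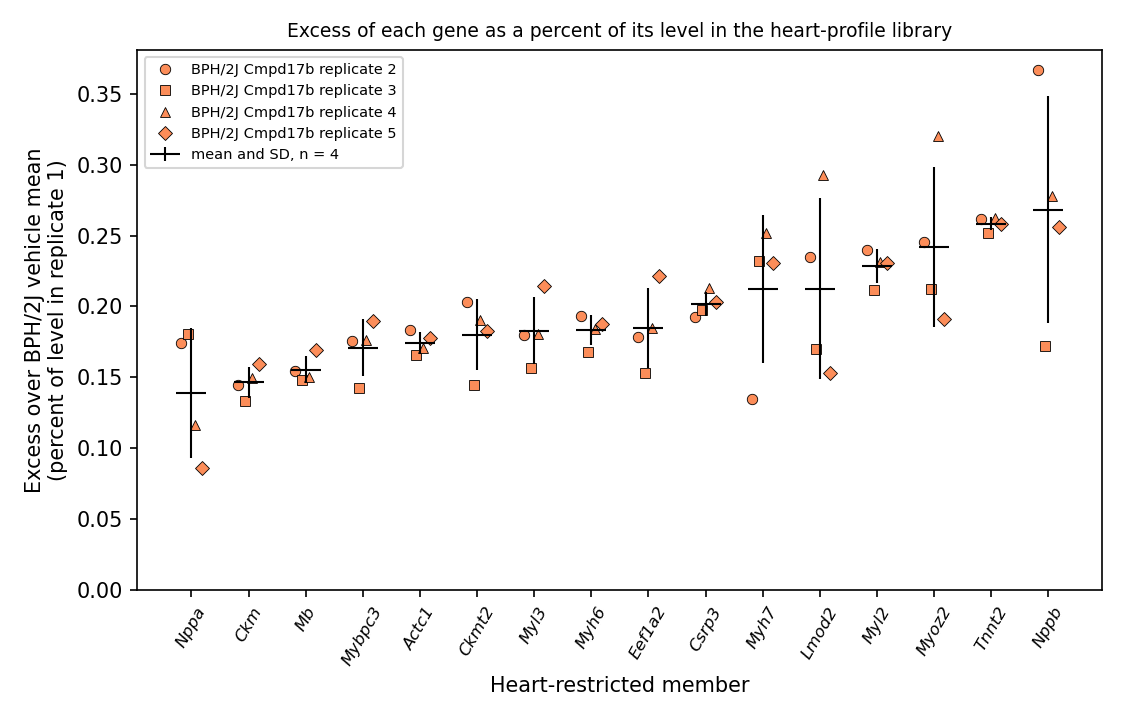
Excess over the vehicle BPH/2J mean in treated BPH/2J replicates 2 to 5 (symbols), as a percent of the level in replicate 1, for the 16 genes nearly absent from vehicle BPH/2J kidneys. The horizontal dashes and bars are the mean and SD over the 4 libraries, which run from 0.139% for Nppa to 0.268% for Nppb.

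Summed over those 16 genes, the level was 131, 119, 129 and 133 CPM in treated BPH/2J replicates 2 to 5 and 66407 CPM in the heart-profile library. It was 1.44, 1.37, 1.02 and 3.99 CPM in vehicle BPN/3J, 5.01, 1.28, 6.81, 1.57 and 1.02 CPM in treated BPN/3J and 1.49, 1.49, 2.76, 5.87 and 3.6 CPM in vehicle BPH/2J. As a percent of the heart-profile library, the 4 libraries held 0.179% to 0.201% and the other 14 held 0.00154% to 0.0103%. The low level in vehicle BPH/2J follows from the limit that picked the 16 genes. Their level in the 4 libraries was known when the genes were chosen, so the gap is a description only. Among the 14 the sum ranged from 1.02 to 6.81 CPM and the 3 groups overlapped. The highest of the 14 were treated BPN/3J replicate 3 and vehicle BPH/2J replicate 4, followed by treated BPN/3J replicate 1. Fat cell genes, summed without Fabp4, were at 108 CPM in treated BPN/3J replicate 1 and 58.3 CPM in vehicle BPH/2J replicate 4 and at most 20.5 CPM elsewhere, and their part was not tested.

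**Figure D4:**
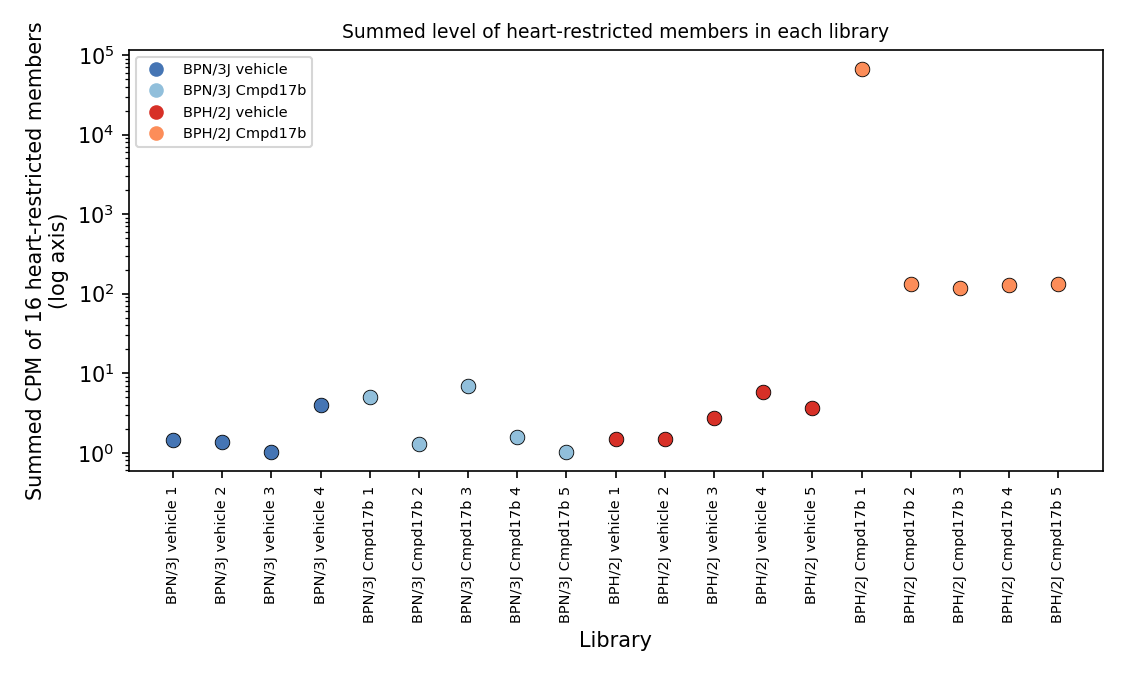
Summed CPM of the same 16 genes in each of the 19 libraries, log y axis, 1 point per library, coloured by group. The 16 genes were picked for a low level in vehicle BPH/2J. Replicate 1 of treated BPH/2J is at 66407 CPM, the 4 others of its group are between 119 and 133 CPM, and the remaining 14 are between 1.02 and 6.81 CPM.

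Over all 40 genes the sum in the 4 libraries was 624 ± 64.8 CPM against 434 ± 61.5 CPM in vehicle BPH/2J, a ratio of 1.44 ± 0.252. For the 37 genes above the ratio was 2.86, and for Myl7, Atp2a2 and Fabp3 it was 1.04. Against treated BPN/3J mice, the 4 libraries had a median fitted log2 fold change of 3.66 over the 39 tested genes. Of these, 23 passed the filter without the treated BPH/2J libraries. The rest passed only through those libraries, where they are high, so this median is not independent of the filter. The comparison with treated BPN/3J shares the 4 libraries with the one against vehicle, so it is no second observation.

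The strains under vehicle were compared to ask which heart muscle genes differ between the hypertensive and the normotensive kidney. No treated library is on either side of that contrast, and a test is given, although treated libraries were part of the same fit. The levels of the genes in both vehicle groups were known when the genes were chosen. The test is therefore not independent of that choice. Of 39 genes tested, edgeR's quasi-likelihood test called 5, with 2 of them higher and 3 lower in BPH/2J (a gene was called where the adjusted p lay under 0.05). Over all 16421 genes 10.8% were called, 5.82% higher and 4.94% lower. Myl7 did not pass the filter, and 16 of the 39 passed it only through the treated BPH/2J libraries, where they are high, so no share or median over the 39 is given. The other 23 hold the 5 called genes. In a fit without treated BPH/2J libraries, 5 of these 23 were called and 13.5% of all 16131 genes tested. The median log2 fold change over the 23 was 0.45, against 0.04 over all genes, in the fit of 18 libraries.

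Trdn, which encodes triadin, an anchor of the calcium store to the ryanodine receptor, was lower in BPH/2J. It was at 0.254, 0.286, 0.0953, 0.208 and 0.851 CPM in vehicle BPH/2J and 3.37, 2.49, 2.88 and 2.16 CPM in vehicle BPN/3J, with no overlap (log2 fold change -2.96, SE 0.451, edgeR adjusted p 0.000214). Ryr2, the ryanodine receptor itself, was also lower, at 1.81, 1.46, 0.857, 1.73 and 1.32 CPM against 5.61, 2.83, 4.54 and 3.56 CPM (log2 fold change -1.49, SE 0.228, edgeR adjusted p 0.000214). Mylk3, the cardiac myosin light chain kinase, was at 2.61, 2.19, 1.65, 1.46 and 2.71 CPM against 3.44, 3.96, 3.17 and 3.91 CPM (log2 fold change -0.72, SE 0.221, edgeR adjusted p 0.0428). In these 3 genes every vehicle BPH/2J mouse lay below every vehicle BPN/3J mouse. Treated BPN/3J mice also lay above all vehicle BPH/2J mice, at 3.81, 2.86, 2.11, 3.68 and 1.05 CPM for Trdn, 4.94, 2.74, 3.11, 2.51 and 3.2 CPM for Ryr2 and 3.25, 3.65, 4.64, 4.66 and 2.77 CPM for Mylk3. Treated BPH/2J replicates 2 to 5 were at 0.959, 0.863, 0.942 and 0.421 CPM for Trdn, 2.7, 2.66, 2.47 and 2.57 CPM for Ryr2 and 3.62, 5.04, 3.85 and 3.46 CPM for Mylk3.

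Hspb7 and Tnni3 were the 2 genes higher in vehicle BPH/2J mice. Hspb7 was at 3.37 ± 0.520 CPM against 1.48 ± 0.0557 CPM, without overlap (log2 fold change 1.24, SE 0.207, edgeR adjusted p 0.000512). Tnni3, cardiac troponin I, was at 0.254, 1.05, 0.914, 1.22 and 1.04 CPM against 0.245, 0.19, 0.268 and 0.502 CPM (log2 fold change 1.58, SE 0.398, edgeR adjusted p 0.0138), and its groups overlapped through BPH/2J vehicle replicate 1. It was at 0.60, 0.321, 0.381, 0.274 and 0.389 CPM in treated BPN/3J and 8.03, 7.67, 6.64 and 8.97 CPM in treated BPH/2J replicates 2 to 5. Acta1, which passed the filter only through the treated BPH/2J libraries, was at 1.93 CPM in BPH/2J vehicle replicate 5 and at 0.0297 to 0.191 CPM in the other 4. With the heart-profile library in the fit, edgeR called 0 of the 5 (adjusted p 0.444 to 0.868). The calls for Tnni3 and Mylk3 were lost in a fit of only the 2 groups and without BPN/3J vehicle replicate 2, for an edgeR count of 3, and those for Trdn, Ryr2 and Hspb7 were kept in all 18 fits that left out 1 library.

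**Figure D5:**
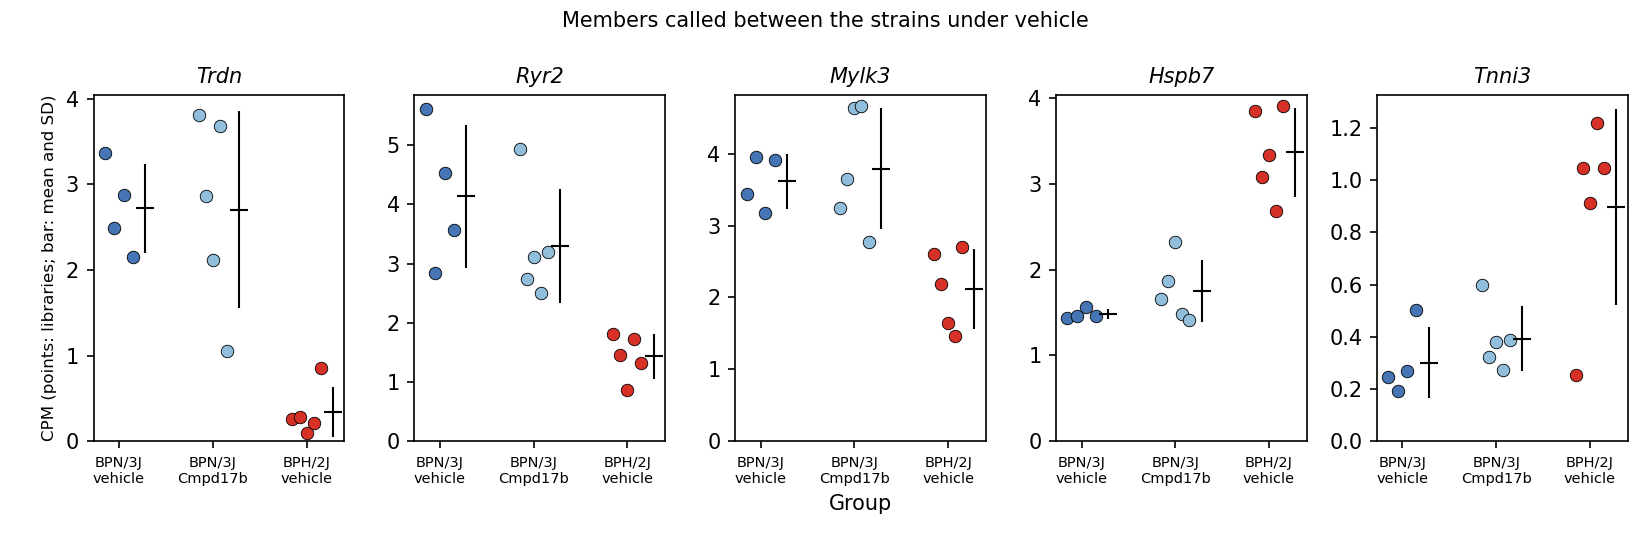
CPM of the 5 genes called between the strains under vehicle, 1 point per mouse, in vehicle BPN/3J, treated BPN/3J and vehicle BPH/2J, each panel with its own axis from 0. The dash and bar beside the points are the mean and SD. Trdn, Ryr2 and Mylk3 are lower and Hspb7 is higher in every vehicle BPH/2J mouse than in every vehicle BPN/3J mouse, and Tnni3 has 1 overlapping mouse.

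Other gene lists moved with this contrast. Smooth muscle genes, summed without Des, were at 116 to 249 CPM in vehicle BPH/2J and 86.1 to 123 CPM in vehicle BPN/3J, and of 8 tested 5 were called higher (Acta2, Myh11, Cnn1, Tagln and Myl9) and 1 lower (Lmod1). Among heart calcium and excitation genes outside the 40, 17 were tested: Jph2 and Kcnj5 were called higher and Slc8a1 and Kcnj2 lower. Of 19 further heart sarcomere genes tested, 1 was called higher (Obsl1) and 0 lower. Among 13 further heart energy genes and 3 heart transcription factors tested, 0 were called. Slc8a1, a sodium-calcium exchanger that distal convoluted tubule cells also use, was at 81.9, 54.8, 36.9, 31 and 52.2 CPM against 123, 131, 126 and 92.3 CPM, and of 7 distal convoluted tubule genes 0 were called higher and 2 lower. Of 8 podocyte genes 5 were called higher and 0 lower, and of 8 fibroblast genes 4 were called higher and 0 lower. Over all genes tested, 5.82% were called higher and 4.94% lower. Collecting duct, endothelial, red blood cell and atrial lists had 1 gene each called higher and 0 lower, and the proximal tubule list had 1 lower. The skeletal muscle, fat cell, leukocyte and thick ascending limb lists had 0 called, of 3, 6, 7 and 7 genes tested. The part of these cell types in the 5 calls was not tested.

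The effect of Cmpd17b in BPN/3J mice was tested to ask whether the compound changes these genes in the normotensive kidney. The levels in both BPN/3J groups were known when the genes were chosen, so this test is not independent of that choice either. edgeR called 0 of the 39 genes, as it called 0% of all 16421 genes. DESeq2 and limma-voom also called 0 of the 39, and over all genes DESeq2 called 6 and limma-voom 0. Of the 39, 16 passed the filter only through the treated BPH/2J libraries. These 16 were scarce in BPN/3J mice, so the lack of a call among them says little. Of the 23 genes that passed the filter without the treated BPH/2J libraries, 0 had an unadjusted p under 0.05, against 2.53% of all genes. Their log2 fold changes ran from -0.37 for Ryr2 to 1.04 for Myh6, with a median of -0.01. The 16 others passed only because they are high in the treated BPH/2J libraries, so a p-value among them supports no change. Among these 16, 1 had an unadjusted p under 0.05. It was Actc1, whose treated replicates 1 and 3 were at 0.60 and 0.88 CPM where the other 3 were at 0.0876 CPM or less (edgeR adjusted p 1). The 16 genes nearly absent from vehicle BPH/2J kidneys are a partly different set, with Myh6, Myl3, Tnnt2 and Mb, which passed the filter without those libraries. Together they had only 41 to 159 counts per vehicle BPN/3J library and 31 to 232 per treated one.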

How the data were processed

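Kidney RNA of 19 mice was sequenced as paired reads after selection for polyadenylated transcripts, and the authors deposited 1 table of estimated counts (expected counts) per gene symbol. Per the submitters' processing notes, the tools were Trim Galore 0.6.7, a read trimmer, and STAR 2.7.9a, an aligner, with build mm39. Which tool and annotation gave the counts is not given in the sources used here. Between 4.63% and 10.1% of a library's values were not whole, and counts were rounded before testing. A gene with close relatives, or an overlapping one, may have shared reads.

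CPM was computed from unrounded counts and library totals. Differential expression was tested with edgeR 4.0.16 (robust quasi-likelihood F-test, TMM, filterByExpr with minimum count 10 and minimum total 15) under R 4.3.3, with all 4 groups in 1 fit, no covariate, 18 libraries and Benjamini-Hochberg adjustment over all genes. The steps were tested on simulated data. The alternatives were all 19 libraries, DESeq2 1.42.0, limma-voom (limma 3.58.1), DESeq2 size factors in edgeR, other filters, only the groups compared, no treated BPH/2J library (added after seeing the data) and leaving out each library. Comparisons with treated BPH/2J libraries are described without a test. Figures used matplotlib 3.10.9.

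The 40 genes, the gene lists and the heart-profile library were chosen with earlier results of these data known. All 40 could be named. Values in every library were given for the 2 of each role with the highest CPM in the heart-profile library, both natriuretic peptides, the pairs Myh6 and Myh7, Actc1 and Acta1, and Myl2 and Myl7, and genes called. From other lists up to 3 genes were named, with the atrial, ventricular and skeletal markers. Tnnt2, Csrp3, Gata4, Hand1, Slc8a1 and the genes called in other lists were added after their values were seen. Transcript lengths and 50-base windows came from GENCODE M21 (GRCm38), an earlier build, and no genome coordinates of the files' build are given.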

Additional observations from a re-analysis of the deposited data

Results flagged for a closer look

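In groups of 4 or 5 libraries, 1 library was far from the others of its group in 16 of 89 groups of values checked, where chance flags about 1 in 20. That rate is for normally distributed values, and it was not computed for groups of mostly 0 counts. Summed over the 40 genes, BPH/2J Cmpd17b replicate 1 stood at 112744 CPM.

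BPN/3J vehicle replicate 4 stood above the 3 others of its group for the sum over the 16 nearly absent genes (3.99 CPM), Mb (0.727 CPM), Pln (2.16 CPM), Nppa (0.125 CPM) and Eef1a2 (0.0502 CPM). BPN/3J vehicle replicate 3 did so for Acta1 (0.0976 CPM). Among treated BPN/3J mice, replicate 1 was high for Ttn (1.48 CPM) and Ryr2 (4.94 CPM), and replicate 3 was the only one with a count for Nppa (0.0587 CPM) and Eef1a2 (0.0293 CPM).

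In vehicle BPH/2J mice, replicate 5 was high for Acta1 (1.93 CPM), Nppb (0.155 CPM) and Trdn (0.851 CPM). Replicate 4 was high for Fabp3 (137 CPM) and was the only one of its group with a count for Myl7 (0.0297 CPM).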

How the results depend on the processing

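The 5 genes called between the strains under vehicle fell to 0 with all 19 libraries (edgeR adjusted p 0.444 to 0.868) and to 3 with only the 2 groups compared, and leaving out 1 library gave 3 to 7, with 3 without BPN/3J vehicle replicate 2. Other settings gave 4 to 6. Mylk3 and Tnni3 were each lost under other settings as well, and in 8 and 2 of the 18 fits that left out 1 library. The count for Cmpd17b in BPN/3J was 0 in all settings and in all 18 fits. The 29 separated genes became 29 to 32 when 1 library was left out. The median excess of 0.183% was 0.229% with no baseline subtracted and 0.154% on TMM-scaled totals, and 0.177% to 0.197% without 1 library. The summed ratio of 1.44 was 6.88 as a median over genes, 53.1 with all 5 treated libraries, 2.55 without Tpm1, Atp2a2 and Des, and 1.38 to 1.49 without 1 library. Under these settings 0 results changed direction. Where a value depends on a left-out library or scaling, the cause was not tested. No paired analysis was possible because the replicate numbers only name mice and the labels pair none. Depth limits the scarce genes, with 1 to 9 of the 40 at 0 in a vehicle library.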
